A study of Bos taurus with 30 samples.

Results

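The miR-2284 and miR-2285 family is a set of miRNAs annotated in cattle under a pair of neighbouring numbers, each followed by letters that separate the members. Members were taken by name alone, as every row of the deposited table named miR-2284 or miR-2285 with any letter or arm, and no measured value was used to choose them. This gave 148 of the 1030 rows, 31 under miR-2284 and 117 under miR-2285, and 12 of the 148 names carried an arm (8 the 5p arm and 4 the 3p arm).

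A miRNA is a short RNA cut from a hairpin transcript and loaded into an Argonaute protein, where the bases near its 5′ end, the seed, pair with target mRNAs and lower their stability or translation. The miR-2284 and miR-2285 family is known from ruminants, has many closely similar copies spread over the genome, and has few members with an established function. Because the mature forms resemble one another, a sequenced read can match more than 1 of them, and the value of a row then depends on how the counting step treats such a read.

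Small RNA was sequenced from the anterior pituitary, the lobe of the gland that secretes growth hormone, prolactin and the gonadotropins, of 30 Holstein-Friesian bull calves with 1 library per calf. From 2 to 12 weeks of age, 15 calves were on a high plane of nutrition (HI) with 1.5 kg of milk replacer in 10 litres per day and concentrate offered without limit. The other 15 were on a moderate plane (MOD) with 0.5 kg of milk replacer in 4 litres and a concentrate allowance capped at 0.5 kg, both daily. The gland was taken from every calf at 12 weeks of age. The comparison of HI with MOD asks how early feeding changed the gland.

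Levels are CPM, reads per 1000000 miRNA reads scaled by TMM factors. Reads on miRNAs numbered 6650492 to 11086524 per library, so a member at 0 in a library may still have been present at up to 3 reads (0.266 to 0.419 CPM, counting error alone). The pituitary endocrine markers miR-375 and miR-7 summed to 119220 to 212047 CPM, while the liver marker miR-122 had at most 2 reads. Red cell markers (miR-451, miR-144, miR-486) summed to 10578 to 27422 CPM, neural markers (miR-124a, miR-124b, miR-9-5p, miR-128) to 345 to 933 CPM and striated muscle markers (miR-1, miR-133a, miR-206) to 5.15 to 77.3 CPM. Stromal markers (miR-143, miR-145, miR-199a-3p, miR-214) summed to 32071 to 183141 CPM and endothelial markers (miR-126-3p, miR-126-5p) to 8998 to 16172 CPM. Every listed marker was above 0 in at least 1 library. The HI and MOD ranges overlapped for each of these lists, but their upper ends differed. The highest stromal sum was 183141 CPM in HI and 76081.5 in MOD. For striated muscle it was 77.3 and 26.7 CPM, and for neural markers 933 and 617 CPM. Red cell and endothelial markers had their highest sums in MOD. The red cell marker miR-486 was tried as a covariate of the diet fit, and the part of the other markers was not tested. The 9 libraries with the highest calf label numbers (5 HI and 4 MOD) stood apart from the other 21 (10 HI and 11 MOD) in several members, so results are given for both sets where they matter. The labels do not say what the numbers stand for.

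Most of the family was detected, at low levels. Of the 148 rows, 141 were above 0 in at least 1 library, and 72 were above 0 in all 30. The 7 rows at 0 in every library were miR-2284i, miR-2285cb, miR-2285cg, miR-2285cq, miR-2285dm, miR-2285w and miR-2285z, so each lay below the limit given above. A further 34 rows were above 0 but never had more than 3 reads in any library, which leaves 107 rows above that limit at least once. A library held 104 to 118 members above 0 in HI (median 108) and 101 to 116 in MOD (median 108).

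Levels differed widely among the members. Means were over 10 CPM for 17 rows, between 1 and 10 CPM for 32 and at most 1 CPM for 92. miR-2284x held 56.9% of all member reads and was 13.2 times the next member. It ranked 73 of the 1030 rows by mean level. The 10 highest members, miR-2284x, miR-2285ce, miR-2285f, miR-2285bn, miR-2285da, miR-2285dd, miR-2285k, miR-2284aa, miR-2285q and miR-2284z, together held 84.5%.

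**Figure D1:**
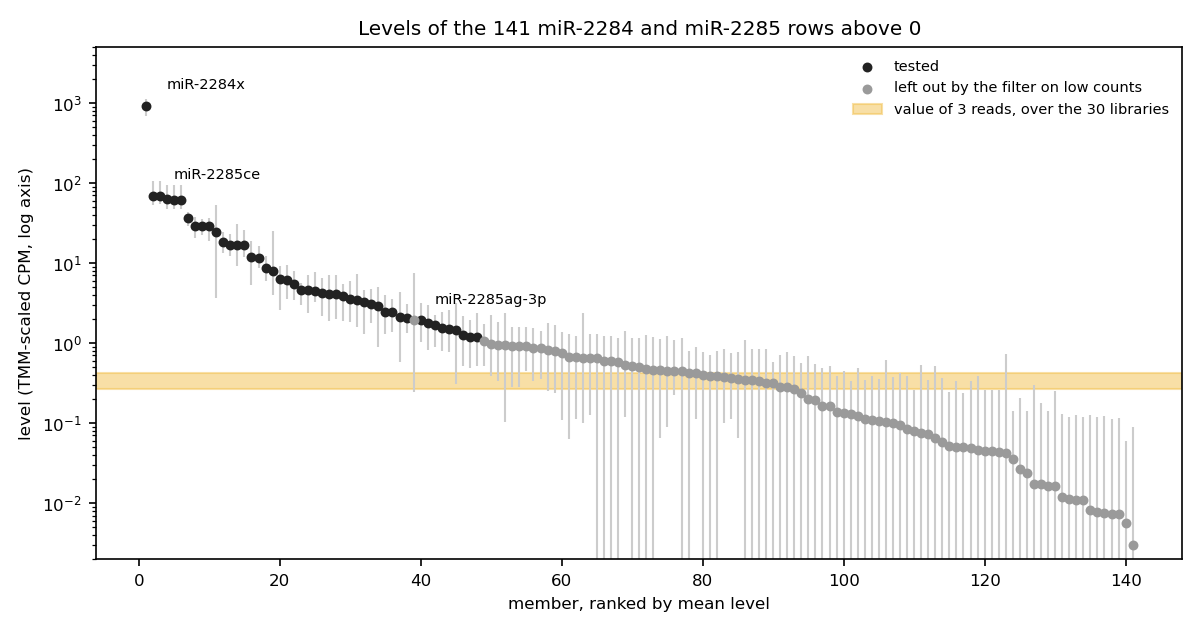
Mean level of each of the 141 members above 0 in TMM-scaled CPM (log axis) against its rank, with grey lines from the lowest to the highest of the 30 libraries. Black points were tested for diet, grey points were left out by the filter on low counts, and the shaded band is the value of 3 reads (0.266 to 0.419 CPM). miR-2284x stands 13.2 times above the next member, and 92 members average at most 1 CPM.

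Compared with other parts of the table, the family's rows were often above 0 in at least 1 library but held few reads. It took 0.163% of all miRNA reads from its 148 of 1030 rows. Of its rows 95.3% were above 0 in at least 1 library. The share was 60.6% for the 241 rows named miR-2286 to miR-2490, which were also found in cattle. It was 83.7% for the 129 rows with five-digit numbers and 86.9% for the 512 other rows. Above 0 in all 30 libraries were 72 of the family's rows, and 36, 24 and 354 rows of the other lists in that order. A mean over 1 CPM was reached by 33.1% of the family, and by 8.71%, 14.7% and 66.0% of the others. By both of these rules the 512 other rows stood above the family. The median of the mean levels of rows above 0 was 0.507 CPM in the family, 0.0914 CPM in the rows named miR-2286 to miR-2490, 0.0855 CPM in those with five-digit numbers and 25.6 CPM in the other rows. These are descriptions of rows, which are not independent of one another where they share reads.

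In RefSeq's gene table for ARS-UCD2.0, a later assembly than the one the reads were aligned to, 191 of 1032 miRNA genes (18.5%) carried names of the family, and they lay on 30 chromosomes. Of the 148 rows, 140 matched a gene, 115 with 1 gene and 25 with more than 1. In this sense 16.9% of the family's rows had several genomic copies, against 1.66% of the rows named miR-2286 to miR-2490 and 11.5% of the other rows. Of the 191 genes, 125 (65.4%) lay within the span of a protein-coding gene, beside 549 of the 841 other miRNA genes (65.3%). Strand was not compared. Genes around members among the 10 highest included TIAM1 (miR-2284x), SREK1, a splicing regulator (miR-2285q), and RUSC2 (miR-2285da). TBK1, a kinase of innate immune signalling, holds 1 of the 2 genes of miR-2285f. The rows miR-2285da and miR-2285f moved together over the libraries (below), and their reads were not traced to these genes.

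How the reads were shared could be read from the values themselves. Each deposited value, divided by the value of 1 read in its library, should be a whole number if every read is given to 1 row. Within 0.02 reads, 483 of the 3263 member values above 0 (14.8%) were instead fractions of a read, against 528 of 15879 (3.33%) in the rest of the table. The fractions fell in 29 of the family's rows (19.6%), and the other 112 rows above 0 held whole reads throughout. Only 2 of the 241 rows named miR-2286 to miR-2490 held fractions, none of those with five-digit numbers did, and 35 of the 512 other rows (6.84%) did.

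All 29 rows with fractions had a common denominator of 12 or less, meaning the smallest number that turns every one of the row's values into whole reads. It was 2 in 19 rows and larger in 10. In 11 rows it equalled the number of RefSeq genes with the row's name. These were miR-2284y, miR-2284z and miR-2285n with 7, miR-2285k and miR-2285m with 5, and miR-2285e, miR-2285b, miR-2285dl-3p, miR-2285af, miR-2285at and miR-2285cr with 2. In the rest of the table the same equality held for 28 of 37 such rows. Steps of this size are what dividing a read over that many hairpins would give, which was not tested.

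In 16 rows the denominator was larger than the row's own number of genes, and for 9 of them it equalled the genes of the row and of a partner row that moved with it. miR-2284aa had a denominator of 11, the sum of its 4 genes and the 7 of miR-2284z. miR-2285av had a denominator of 8, the sum of its single gene and the 7 of miR-2284y. The sum was 2 for miR-2285by with miR-2284ab, miR-2285aw with miR-2285cm, miR-2285co with miR-2285bl, miR-2284e with miR-2284f, miR-2284h-5p with miR-2285av, and miR-2285am-5p and miR-2285dc with each other, each of these rows having 1 gene. Any 2 rows with 1 gene each sum to 2, and 115 of the 148 rows had 1 gene, so these sums of 2 say little. miR-2284h-5p also moved with miR-2284y, where the sum is 8 and does not match. No matching sum was found for the other 7, which were miR-2285f with 4, miR-2285as with 3, and miR-2284ac, miR-2285ad, miR-2285aq, miR-2285bg and miR-2285u with 2. The denominator of miR-2285o, 4, was below its 5 genes, and miR-2285bd had no matching gene. Several genes did not by themselves give fractions: of the 25 rows with more than 1 gene, all above 0, 10 held whole reads throughout.

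**Figure D2:**
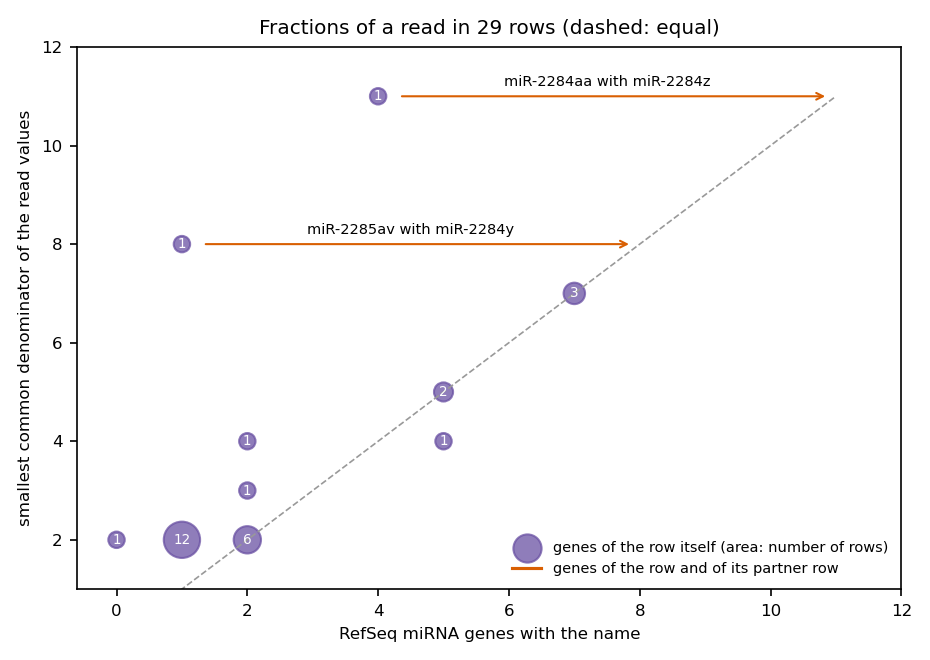
Smallest common denominator of the read values of the 29 rows that held fractions of a read, against the number of RefSeq miRNA genes (ARS-UCD2.0) with the row's name. Circle area and the figure inside give the number of rows, and the dashed line marks equality, reached by 11 rows. Arrows show miR-2284aa and miR-2285av, which reach it once the genes of the partner row are added.

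In some of these pairs the multiplied reads were also close. The reads of miR-2285by (mean 28.0) times 2 were never fewer than those of miR-2284ab (mean 55.2), and exceeded them by 0 to 3 reads (mean 0.767) over the 30 libraries. The reads of miR-2285av times 8 exceeded those of miR-2284y times 7 by 43 to 100 (mean 68.5), where the latter averaged 1112 reads. The multiplied reads of miR-2285am-5p and miR-2285dc, which have the same denominator, were equal in all 30 libraries. Multiplied reads were not close where the rows themselves were nearly equal but the denominators differed. miR-2284aa and miR-2284z averaged 256.2 and 250.1 reads, and miR-2285aw and miR-2285cm 35.4 and 35.9 reads.

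Signs of sharing were then sought without the gene numbers. For each pair of rows with a mean of at least 10 reads, the chi-square of the reads against a constant ratio over the 30 libraries was divided by its degrees of freedom. The value is about 1 for separate whole reads in a fixed ratio and falls below 1 where the rows hold the same reads. Dividing reads also lowers it, so for rows with fractions a low value does not by itself show shared reads. Of the 1128 pairs among 48 members, 17 (1.51%) were below 0.25, the highest of them at 0.0937 and the next pair at 0.407, so that the limit fell in a gap. Of 69751 pairs among 374 rows outside the family, 4 (0.00573%) were below it, among them miR-129 with miR-129-5p, whose values were equal in all 30 libraries. None of the 17952 pairs of a member with an outside row was.

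The 17 pairs joined 16 members into 6 groups, which held 27.8% of the member reads. The largest was made of miR-2285ce, miR-2285f, miR-2285bn, miR-2285da and miR-2285dd, which are the members ranked 2 to 6. The next held miR-2284y, miR-2285av and miR-2284h-5p. The other four were the pairs miR-2284aa with miR-2284z, miR-2284ab with miR-2285by, miR-2285cm with miR-2285aw, and miR-2285o with miR-2285u.

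In the group of 5, 4 rows held whole reads. miR-2285da ranged from 360 to 1056 reads and miR-2285dd from 359 to 1052, with means of 537.1 each, and both held whole reads in all libraries. The pair was equal in 10 libraries and differed by at most 4 reads in the others. The SD of their difference was 1.51 reads, where independent counts of this size would give 32.8. miR-2285bn stood above miR-2285da by 4 to 21 reads in every library. miR-2285ce (mean 611.2 reads) and miR-2285f (mean 610.7 reads, in steps of 0.25 reads) differed by 0.25 to 23 reads. Whole and nearly equal reads in several rows are what counting a read in full in each would give. The reads themselves were not analysed here.

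**Figure D3:**
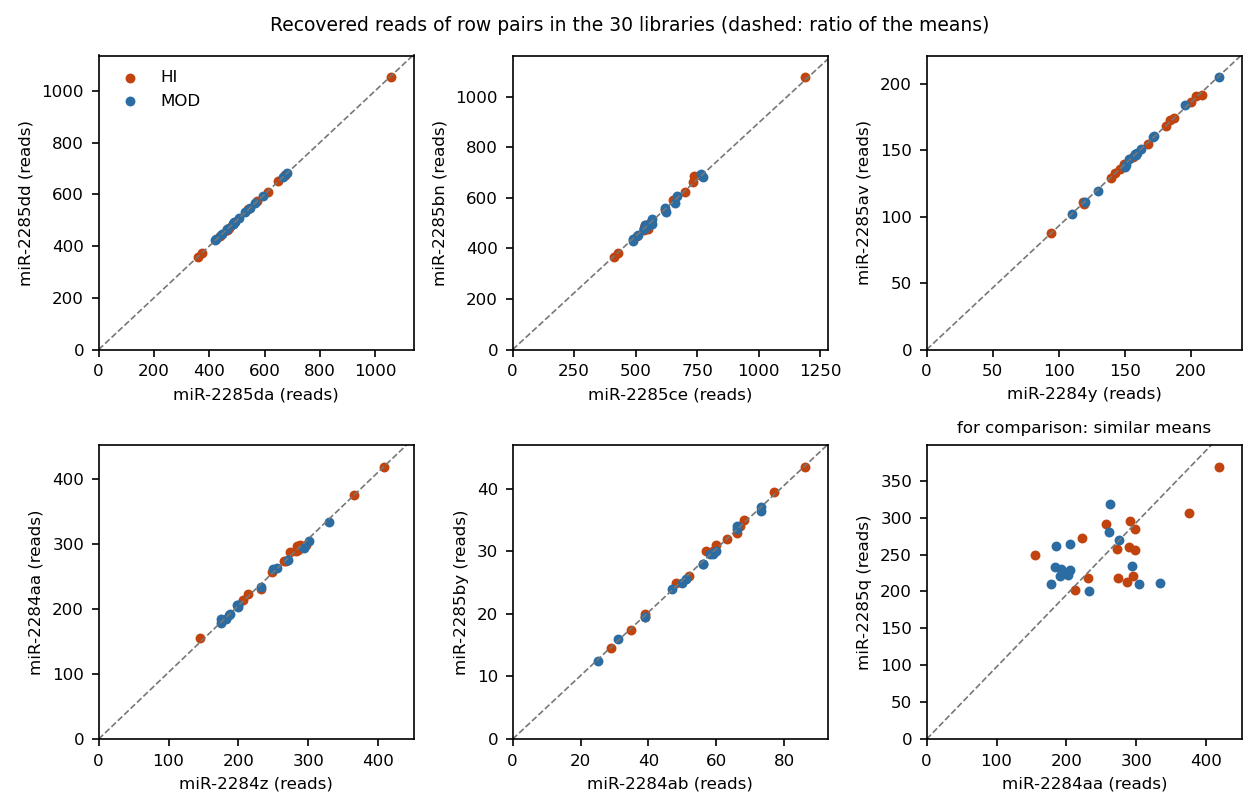
Recovered reads of pairs of rows in the 30 libraries (orange HI, blue MOD), with a dashed line at the ratio of the means. The first 5 panels are among the 17 pairs under the limit of 0.25, with points near the line. The last, miR-2284aa with miR-2285q, is a pair of similar means (256.2 and 250.4 reads) above the limit, and its points scatter.

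Below a mean of 10 reads the same measure found 4 more pairs under 0.2. miR-2285am-5p and miR-2285dc were equal in all 30 libraries (2.5 to 16.5 reads). miR-2284ac and miR-2285ai-5p were equal in 19 and never more than 0.5 reads apart. miR-2285bl and miR-2285co were equal in 15, and miR-2284e followed miR-2284f (means 4.03 and 8.53 reads). Among the 2592 pairs of a member above and a member below that mean, 1 was under 0.2, miR-2285ar with miR-2285bd (0.0373, means 12.7 and 6.82 reads), and the next was at 0.352. All 5 of these pairs rest on few reads, and they were left out of the 6 groups.

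Keeping only the highest row of each of the 6 groups lowered the family's sum. This takes the other rows as full copies, which was not tested and does not hold where reads are divided. The summed level fell from 1622 to 1304 CPM on average, 19.6% less. The rows of a set are not separate measurements of the diet.

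The family's summed level had similar means on both diets, with a wider spread in HI. In HI it was 1296 CPM at the lowest, 1618 at the median and 1905 at the highest, with a mean of 1612 ± 168 (SD, n = 15). In MOD it was 1456, 1611 and 1883 CPM, with a mean of 1632 ± 128 (SD, n = 15). The MOD range lay within the HI range, and 9 of 15 HI calves were above the MOD median. As a share of miRNA reads the family made up 0.165% ± 0.0194 in HI and 0.160% ± 0.0116 in MOD. The direction of this small difference was opposite to that of the summed CPM. With each of the 6 groups counted once, the sums were 1293 ± 131 CPM in HI and 1315 ± 111 in MOD. In bulk tissue, fewer cells of a type and less RNA per cell cannot be told apart in such levels.

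The sum differed between the sets of calf labels. In the 9 libraries with the highest label numbers it was 1765 ± 128 CPM (SD, range 1556 to 1905), and in the other 21 it was 1561 ± 108 (SD, range 1296 to 1781). miR-2284x averaged 992 ± 104 and 893 ± 84.6 CPM in these sets, and miR-2285ce 80.2 ± 9.91 and 65.3 ± 6.75 CPM. Both sets held calves of both diets. These values are given with no test. Diet results are given within each set for the members that matter, and the fit was repeated with the set as a block.

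No member was differentially expressed between HI and MOD. The test was limma on log2(CPM + 1), over the 419 miRNAs that passed a filter on low counts, with Benjamini-Hochberg adjustment over all 419. Of the family, 47 rows with 98.1% of its reads were tested, and 101 rows, 94 of them above 0, were left out. At FDR < 0.1 and fold change > 1.5, 0 of 47 members passed, where 2 of the 419 did (0.477%). At FDR < 0.1 alone 0 members passed, where 15 of 419 did (3.58%). At an unadjusted p below 0.05, 1 member passed (2.13%), where 53 of 419 did (12.6%). edgeR's quasi-likelihood test and DESeq2 on the recovered reads also called 0 members at FDR < 0.1, with 2 and 1 members at an unadjusted p below 0.05. With miR-486 as a covariate, limma called 0 members and 11 rows of the whole table at FDR < 0.1, and 0 members had an unadjusted p below 0.05.

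The differences were small and went both ways. Of the 47 members 22 were above 0 and 25 below, from -0.30 to 0.22 on the log2 scale, with a median of -0.0047 beside 0.016 over all tested miRNAs. The 95% interval lay within a fold change of 1.5 in either direction for 46 of the 47 on the log2(CPM + 1) scale, the exception being miR-2285e. The added 1 understates the change of members at a few CPM or less. With 0.1 added in its place, 44 of the 47 intervals lay within a fold change of 1.5, and miR-2284v (-0.16 to 0.61) and miR-2285ar (-0.65 to 0.45) also passed it.

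The leading member, miR-2284x, was at 696 CPM at the lowest, 905 at the median and 1117 at the highest in HI, and at 794, 908 and 1099 CPM in MOD. Means were 909 ± 107 and 938 ± 93.7 CPM (SD, n = 15 each). The groups overlapped, and the log2 fold change was -0.05 (95% interval -0.17 to 0.07, limma adjusted p = 0.873). It was -0.07 within the 21 libraries (exact permutation p = 0.261, two-sided) and -0.03 within the 9 (exact permutation p = 0.802).

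The 5 members of the largest group gave nearly the same values. miR-2285ce was at 53.7, 69.7 and 105 CPM in HI (lowest, median and highest) and at 58.9, 68.8 and 81.1 in MOD. Its mean was 69.7 ± 13.03 CPM in HI and 69.9 ± 7.18 in MOD, with a log2 fold change of -0.02 (95% interval -0.17 to 0.14, limma adjusted p = 0.962). For miR-2285f, miR-2285bn, miR-2285da and miR-2285dd the log2 fold change lay between -0.01 and -0.005, with adjusted p of at least 0.981. The highest HI value of miR-2285ce came from 1 calf with 1187 reads.

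miR-2285k and miR-2285q, which belong to no sharing set, were as even. miR-2285k averaged 36.7 ± 3.63 CPM in HI and 36.4 ± 4.04 in MOD (log2 fold change 0.01, 95% interval -0.11 to 0.14). miR-2285q averaged 29.4 ± 3.55 and 28.3 ± 3.29 CPM (log2 fold change 0.05, 95% interval -0.08 to 0.19). Both had an excess CV, the spread over calves after counting error is taken out, of about 10% (10.7% and 9.91%), where the median of members with at least 10 reads was 17.3%.

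The member with the lowest p was miR-2285aa, whose gene lies inside ERCC3, a helicase subunit of the transcription and repair factor TFIIH. It was at 2.79, 3.69 and 5.98 CPM in HI (lowest, median, highest) and at 1.84, 3.20 and 4.72 CPM in MOD. The means were 3.91 ± 0.831 and 3.24 ± 0.801 CPM, 11 of 15 HI calves were above the MOD median, and the ranges overlapped. Its log2 fold change was 0.22 (SE 0.095, 95% interval 0.03 to 0.41, unadjusted p = 0.028, limma adjusted p = 0.304), which did not pass. Within the 21 libraries the difference was 0.18 (exact permutation p = 0.123) and within the 9 it was 0.31 (exact permutation p = 0.167).

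miR-2284aa and miR-2284z, which were grouped above, came next. miR-2284aa was at 20.3, 31.6 and 37.5 CPM in HI and at 21.4, 26.4 and 36.2 CPM in MOD (lowest, median, highest). Its means were 31.1 ± 4.70 and 27.5 ± 5.01 CPM and 13 of 15 HI calves were above the MOD median, with a log2 fold change of 0.18 (95% interval -0.0012 to 0.36, limma adjusted p = 0.392). Within the 21 libraries it was 0.13 (exact permutation p = 0.239) and within the 9 it was 0.27 (exact permutation p = 0.127). miR-2284z, the other row of the group, gave 0.17 (limma adjusted p = 0.511) and is not a separate measurement.

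The rest of the 6 lowest p-values were miR-2285o, with a log2 fold change of -0.16 (adjusted p = 0.681), miR-2285t with 0.19 and miR-2284v with 0.18 (limma adjusted p = 0.721 for both). miR-2285t averaged 12.7 ± 3.19 CPM in HI and 11.2 ± 3.39 in MOD, and its gene lies inside FCGR2B, which encodes a receptor for the Fc part of IgG. miR-2284v averaged 3.12 ± 1.06 and 2.62 ± 0.938 CPM. None of these differences passed the thresholds used.

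**Figure D4:**
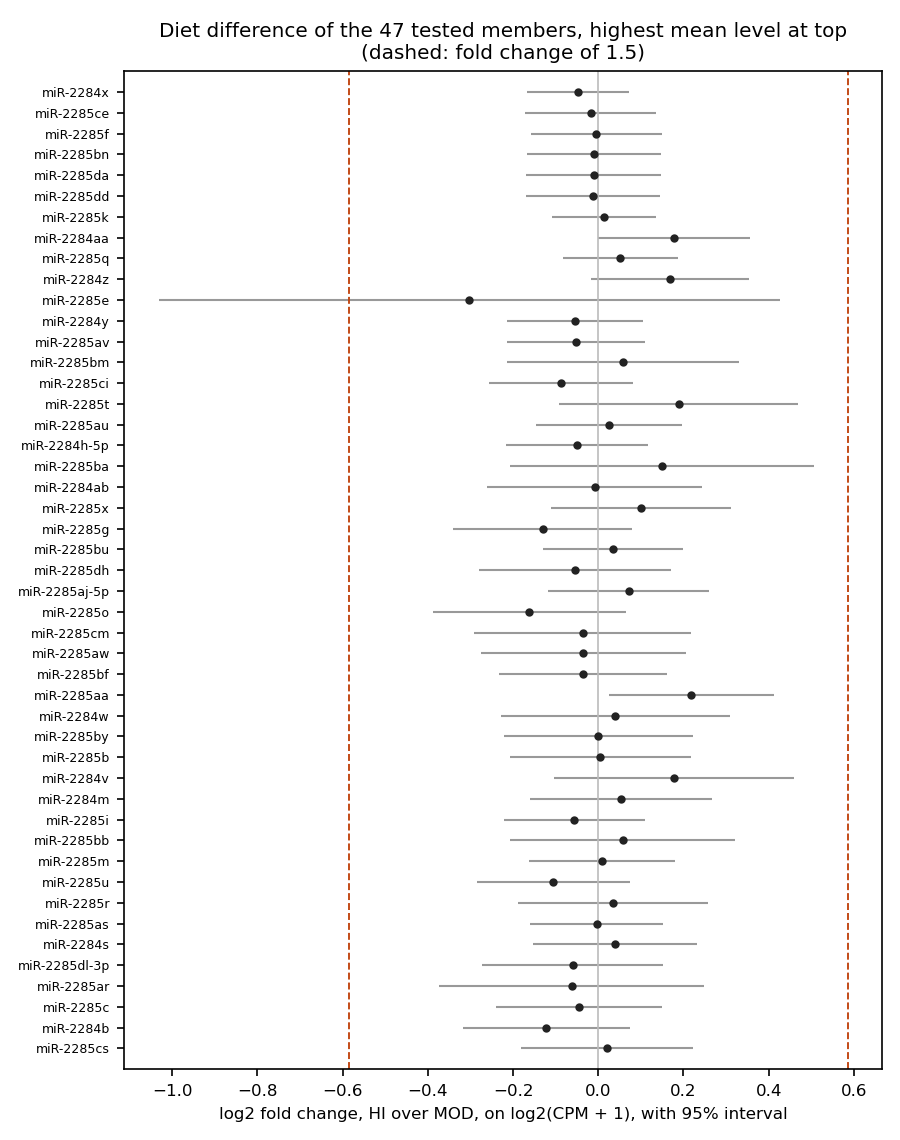
Log2 fold change of HI over MOD on log2(CPM + 1) for the 47 tested members, ordered by mean level from the top, with 95% intervals from limma. Dashed lines mark a fold change of 1.5. On this scale all intervals but that of miR-2285e lie between the dashed lines. The 5 members below miR-2284x, which form the largest group, sit at nearly the same value.

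At the edge of the filter, the lowest tested members were miR-2285c, miR-2284b and miR-2285cs, with means of 1.27, 1.197 and 1.19 CPM (about 10 to 11 reads per library). Their log2 fold changes were -0.04, -0.12 and 0.02. The highest members left out were miR-2285ag-3p at 1.94 CPM, miR-2285br at 1.05 CPM and miR-2284f at 0.966 CPM. miR-2285br averaged 1.07 ± 0.377 CPM in HI and 1.04 ± 0.331 in MOD, and miR-2284f 0.944 ± 0.385 and 0.989 ± 0.440 CPM. With the filter removed, all 141 members above 0 were fitted, 0 passed FDR < 0.1, and 9 (6.38%) had an unadjusted p below 0.05, where 71 of all 840 rows (8.45%) did. The lowest limma adjusted p was then 0.138, for miR-2285ai-5p (log2 fold change -0.21). Next came miR-2284ac (-0.21), which moved with miR-2285ai-5p, and miR-2285al-5p (0.33). These rows average under 1 CPM, where the added 1 shrinks the fold change most. The mean levels in HI and MOD were 0.273 and 0.475 CPM for miR-2285ai-5p, 0.254 and 0.451 CPM for miR-2284ac, and 1.15 and 0.714 CPM for miR-2285al-5p.

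A few members differed strongly between calves of the same diet. Apart from miR-2285ag-3p, they were chosen after their values were seen and get no test beyond the fit of all members. miR-2285e, with 1 gene inside AKAP12 and 1 inside KCNH8, fell into separate ranges. In 6 calves (4 HI and 2 MOD) it was at 3.63 to 6.04 CPM, from 26 to 60.5 reads. In the other 24 it was at 19.4 to 53.6 CPM, from 151.5 to 483.5 reads. No calf lay in the gap of 3.21-fold between them. The label numbers fall into 4 groups by their digit in position 2. The 6 low calves came from all 4 of these groups, and 1 of them belonged to the set of 9. By diet the lowest, median and highest levels were 3.63, 21.1 and 53.6 CPM in HI and 3.75, 28.3 and 43.3 CPM in MOD, and the log2 fold change was -0.30 (95% interval -1.03 to 0.43). A change of 1.5-fold was therefore not excluded by its interval. Its difference was -0.22 within the 21 libraries and -0.60 within the 9. Its excess CV was 52.6%.

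miR-2285ag-3p, whose gene lies inside RYR2, the calcium release channel of the heart, was high in few calves. It was at 3.66 to 7.51 CPM, or 33 to 72 reads, in 7 calves (4 HI and 3 MOD). In the other 23 it was at 0.247 to 1.77 CPM, or 2 to 17 reads. HI averaged 2.03 ± 2.21 CPM and MOD 1.84 ± 2.07, with an excess CV of 111%. Of the 7 high calves, 5 belonged to the set of 9 libraries, where it averaged 3.42 ± 2.50 CPM against 1.30 ± 1.59 in the other 21.

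miR-2285ba, with a gene inside KCNMA1, a calcium-activated potassium channel, reached 25.1 CPM in 1 HI calf, where the next values were 14.6 and 13.8 CPM. Means were 8.87 ± 5.45 CPM in HI and 7.17 ± 1.66 in MOD, with a log2 fold change of 0.15 (95% interval -0.21 to 0.51). The calves at 25.1, 14.6 and 13.8 CPM were all on HI, and the other calves of the diets overlapped. Those at 25.1 and 14.6 CPM were also in the set of 9 libraries with the highest label numbers. That set averaged 10.9 ± 5.81 CPM, against 6.78 ± 2.22 in the other 21.

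miR-2285bj differed between the sets of libraries. It was at 0 in 6 of the 9 libraries with the highest label numbers, in 5 of 5 HI and 1 of 4 MOD, and had at most 5 reads there, with a mean of 0.111 CPM. In each of the other 21 it had 2 to 11 reads, with a mean of 0.869 CPM. Its diet values were 0.593 ± 0.498 CPM in HI and 0.690 ± 0.399 in MOD. At 0 to 11 reads per library these are low counts, and a 0 allows up to 3 reads.

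**Figure D5:**
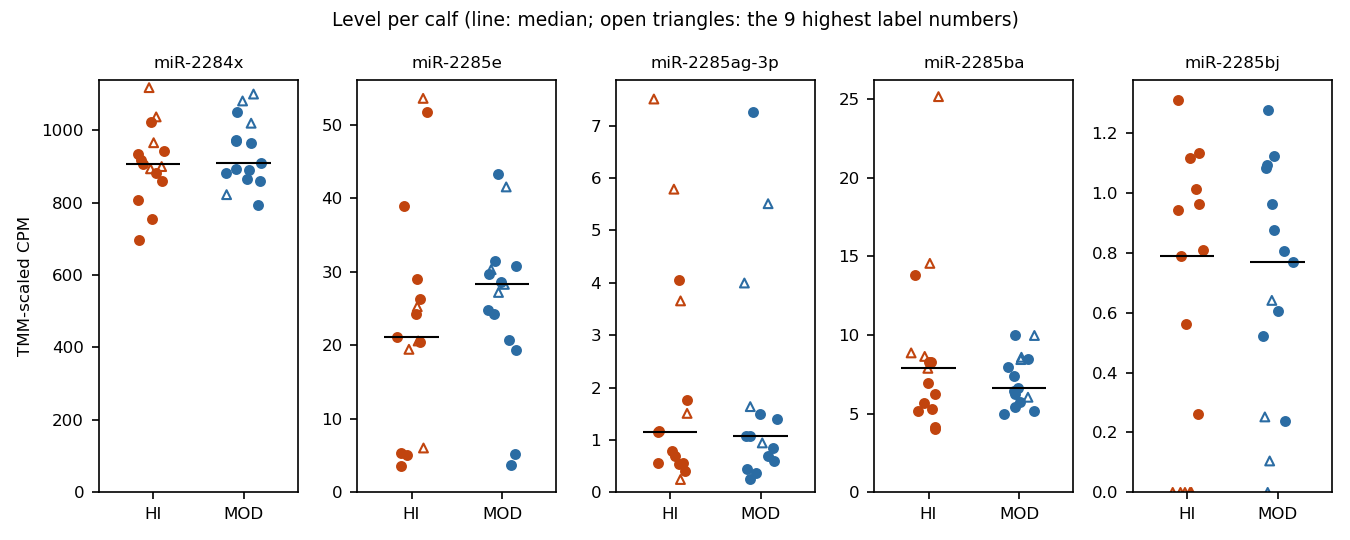
Level in TMM-scaled CPM of 5 members in each calf by diet (line: median; open triangles: the 9 libraries with the highest label numbers; each panel has its own axis from 0). miR-2284x varies little, miR-2285e leaves 6 calves at 3.63 to 6.04 CPM below a gap, miR-2285ag-3p is high in 7 calves, miR-2285ba in 1 HI calf, and miR-2285bj is at 0 in triangles only.

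The rows most like these in pattern were named from Pearson's r of log2 levels over the 30 libraries, as a description with no test, since libraries share the label sets. For miR-2285e it was miR-539 (r = 0.50), for miR-2285ag-3p miR-128 (r = 0.52) and for miR-2285ba miR-502a (r = 0.64). For miR-2285bj it was let-7a-5p (r = 0.68), and the row most opposite to it was miR-409a (r = -0.82). Each highest r was picked from 421 rows (422 for miR-2285bj). The next rows, in the same order, were nearly as high: miR-15a (0.48), miR-423-5p (0.49), miR-429 (0.63) and miR-505 (0.67). The most alike rows are therefore not singled out. For miR-409a no next row was taken. None of the rows named was a member.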

How the data were processed

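Members and lists were chosen with earlier results of these data known. The deposited values were a normalized signal, TMM-scaled CPM made by the authors for every miRNA in every library after adapter trimming with Cutadapt, removal of other short RNAs and quantification of known bovine miRNAs with miRDeep2 on ARS-UCD1.2. Reads were recovered from the value of 1 read in each library, and 93.7% to 95.9% of values per library came out whole within 0.02 reads. Diets were compared with limma 3.58.1 (trended eBayes; R 4.3.3) on log2(CPM + 1), over rows passing edgeR's filterByExpr, with edgeR 4.0.16 and DESeq2 1.42.0 on rounded reads as alternatives. Scripts were tested on simulated data. Named members are the 10 highest, the 6 with the lowest p, the 3 at either side of the filter, and those with fractions in at least 50% of their libraries above 0. Others were chosen after their values were seen. Replicates are calves. Gene numbers came from RefSeq ARS-UCD2.0, another build, so no positions are given, and mature sequences were not used here, so seeds were not compared.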

Additional observations from a re-analysis of the deposited data

How the results depend on the processing

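The counts of 0 members at FDR < 0.1, with and without the fold change limit, held under the other tests, scalings, filters, blocks and the miR-486 covariate, within the 9 and the 21 libraries, and in all 30 fits without 1 library, while calls over the whole table at FDR < 0.1 ranged from 0 (9 libraries) to 29 (upper quartile scaling). With 1 row kept per group, an alternative chosen after seeing the data, the summed means were 1293 CPM in HI and 1315 CPM in MOD. Without miR-2284x the sums were 704 CPM in HI and 694 CPM in MOD. Leaving out each library gave 1592 to 1635 CPM in HI and 1614 to 1644 CPM in MOD, and a median log2 fold change of the members of -0.02 to 0.01. Directions near 0 turned, with the cause not tested. Total counts scaling gave 0.015 for miR-2284x, 0.0445 for miR-2285ce, 0.0578 for miR-2285f, 0.0518 for miR-2285bn, 0.0515 for miR-2285da and 0.05 for miR-2285dd. The last 5, in that order, were at 0.0112, 0.0259, 0.0204, 0.0201 and 0.0188 with edgeR, and at 0.0776, 0.098, 0.0946, 0.1001 and 0.0983 within the 9 libraries. DESeq2 gave 0.0025 for miR-2285f. miR-2285k was at -0.0828 with upper quartile scaling, at -0.0056 with the label range as a block and at -0.0356 within the 9 libraries, and miR-2285q was at -0.044 with upper quartile scaling. Leaving out 1 library moved miR-2285ce over -0.0617 to 0.0068, miR-2285f over -0.0492 to 0.0202, miR-2285bn over -0.0552 to 0.0151, miR-2285da over -0.0556 to 0.014, miR-2285dd over -0.0567 to 0.0128 and miR-2285k over -0.0043 to 0.0383. According to the paper, age, bodyweight, sire and farm were used to block the calves before diets were assigned. The labels do not give those blocks, and no calf number occurs on both diets, so no paired analysis was possible. Summing members with near-identical mature sequences was not run, since no sequences were used here. Depth limits the 92 members that average at most 1 CPM.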
